A study of Ambystoma mexicanum with 12 samples.

Results

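MEIS2, MEIS3, IRX3 and SHOX are homeobox genes, which encode transcription factors with a homeodomain. MEIS2, IRX3 and SHOX are known for their part in patterning the upper and middle segments of the vertebrate limb. The 4 genes were picked by name, as every gene of the count table whose symbol in the axolotl assembly is 1 of these names. Each name was carried by 1 gene, so 4 of 36917 genes are described. The libraries were made from poly-A RNA of right forelimb blastema mesenchyme of albino axolotls (Ambystoma mexicanum), 1 blastema per stranded library. All forelimbs were cut through the zeugopod, the lower arm with radius and ulna. From 24 hours later, 6 animals were given 25 nM Am580, an agonist selective for the retinoic acid receptor RARα, and 6 were given the same volume of the solvent DMSO, in both cases through the whole body and for 5 days. Blastemas were taken 24 hours after treatment ended and their epidermis was removed by hand. Am580 limbs were taken for sequencing where duplication of the opposite limb was greatest. The paper reports no duplication in its DMSO controls, so only the Am580 limbs were chosen by duplication. In the comparison of the groups, that choice of limbs and the agonist cannot be told apart.

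Retinoic acid receptors are transcription factors that bind DNA together with a retinoid X receptor (RXR) and switch genes when a retinoid binds them. Retinoids given to a regenerating salamander limb make a blastema rebuild segments nearer the body than the plane of the cut. MEIS proteins belong to the TALE class of homeodomain proteins, which bind DNA together with PBX and HOX proteins. In chick and mouse limb buds MEIS genes are active near the body wall and mark the future stylopod, the upper arm. IRX3 is a TALE factor of the Iroquois family, and in the mouse it is needed with IRX5 in the early hindlimb bud for upper and anterior skeletal parts. SHOX is a homeodomain factor outside the TALE class. In humans its loss shortens the middle segment of the limb, and the mouse has only its relative SHOX2, which is needed for the upper arm bone.

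Transcripts of all 4 genes were more abundant in the Am580 blastemas. MEIS2 differed most, with a mean level 6.64 times that of DMSO in the fit, followed by IRX3 (2.73 times), SHOX (1.89 times) and MEIS3 (1.65 times). All 4 had enough counts to be tested, with at least 10 in at least 6 libraries, and all passed the test across the whole table, edgeR's quasi-likelihood test with a Benjamini-Hochberg adjusted p under 0.05, where 14.1% of the 25879 genes tested passed and 6.93% passed with a higher level after Am580. MEIS2, IRX3 and SHOX were higher in each Am580 library than in any DMSO library, which was so for 3.97% of genes tested. The genes were chosen with results of these data in view, so these shares are given as the background and nothing is read from them about the 4 genes as a group. In bulk RNA, fewer cells of a type and less RNA per cell cannot be told apart, and this holds for every level below. Only right forelimbs were sequenced, so each library stands for 1 animal, and the spread between libraries includes that between animals.

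Total counts ranged from 34279044 to 43793138 in the Am580 libraries and from 27226012 to 40794002 in the DMSO libraries, and no pair of libraries held the same counts. Levels are given as CPM, counts scaled to a common library total and by TMM, edgeR's factor for differences in RNA composition. Where no read is counted, up to 3 remain possible by counting error alone, the equal of 0.0637 to 0.0915 CPM in an Am580 library and of 0.0754 to 0.111 CPM in a DMSO library. The 4 genes were above this limit in all 12 libraries. Of markers of limb connective tissue 8 were measured, PRRX1, PRRX2, TWIST1 and PDGFRA among them, none at 0 in all libraries and none called. Their presence does not test the tissue label, since the markers of other cell types were present as well. The summed level of the 8 had a median of 8555 CPM with Am580 and 8916 CPM with DMSO. That of muscle markers had a median of 11428 CPM with Am580 and 12297 CPM with DMSO. PRRX1, the limb mesenchyme factor, averaged 160 ± 41.3 CPM in Am580 libraries and 224 ± 57.7 CPM in DMSO libraries (SD, n = 6 each). Its log2 fold change was -0.49 (SE 0.19, edgeR's quasi-likelihood test, Benjamini-Hochberg adjusted p = 0.124). PRRX2 went the other way, with 55.0 ± 21.5 CPM in Am580 libraries and 43.6 ± 16.5 CPM in DMSO libraries. Of the 8 markers, 4 had a log2 fold change above 0 and 4 below, with a median of 0.00853.

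The gene MEIS2 (MSTRG.16039) lies on the plus strand of scaffold AMEXG_0030004635 of the AmexG_v3.0.0 genome, from 757632 to 1163457. Its 18 exon blocks add up to 4346 bases, 1.07% of the 405826 bases between its ends. MEIS3 (MSTRG.10310) lies on the minus strand of AMEXG_0030002441 from 2345112 to 2497213, with 15 exon blocks of 3456 bases in all. IRX3 (AMEXTC_0340000045969_IRX3) lies on the plus strand of AMEXG_0030000011 from 3001748 to 3064832, with 4 exon blocks of 5745 bases. SHOX (MSTRG.12194) lies on the minus strand of AMEXG_0030003028 from 596653 to 664400, with 6 exon blocks of 7166 bases. Both MEIS genes thus have fewer exonic bases and a longer span than IRX3 and SHOX.

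The transcripts on which reads were counted come from the reference gene set and from the authors' assembly of these libraries. The assembled MEIS2 transcript shares no base with 5 of the 18 reference exons, and the 2 assembled MEIS3 transcripts share none with 5 of 15. For SHOX the 2 assembled transcripts run 3432 bases past the 3′ end of the reference transcript, so its counted region is longer at that end than the reference gene. For IRX3 only the reference transcript was present. Counts are per gene over all these exons, and isoforms were not separated.

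**Figure D1:**
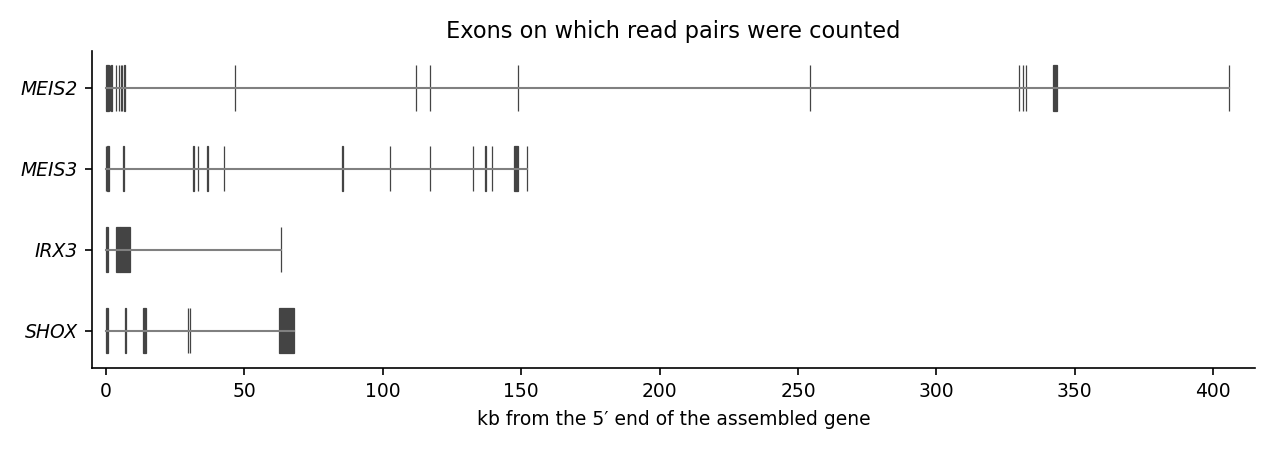
Exon blocks of MEIS2, MEIS3, IRX3 and SHOX, drawn to scale along the horizontal axis in kb from the 5′ end of each gene as assembled, 1 row per gene, with the line marking introns. Exons make up 1.07% of the MEIS2 span and 10.6% of the SHOX span, and thin exons are drawn with a minimum line width.

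MEIS2 had a lowest level of 4.88, a median of 7.87 and a highest level of 10.7 CPM in the Am580 libraries, against 0.738, 1.19 and 1.63 CPM in the DMSO libraries. The groups did not overlap, and the lowest Am580 library stood 3.0 times above the highest DMSO library. The means were 7.83 ± 3.04 CPM with Am580, against 1.18 ± 0.368 CPM with DMSO (SD, n = 6 each). The log2 fold change was 2.73 (SE 0.30, edgeR's quasi-likelihood test, Benjamini-Hochberg adjusted p = 3.96e-05, higher in 6 of 6 Am580 libraries). Among the 1793 genes called higher, MEIS2 ranked 125 by log2 fold change, and 82 among the 1499 of them that averaged 1 CPM or more. The other 3 genes stood further down the first order, IRX3 at 502, SHOX at 943 and MEIS3 at 1195.

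Within the Am580 group the libraries fell into 2 sets by their level of MEIS2. This split was noticed in the values themselves. Whether MEIS2 has 2 levels was not tested, and 6 libraries could not show it. Replicates 2, 3 and 5 were at 10.7, 10.6 and 10.5 CPM, and replicates 1, 4 and 6 were at 5.19, 4.88 and 5.11 CPM. No Am580 library lay between 5.19 and 10.5 CPM, a gap of 2.03 times. The coefficient of variation was 38.8% with Am580, where counting alone would give 5.73%, so most of this spread is not counting error. With DMSO it was 31.3%, where counting alone would give 16.0%, since DMSO libraries held only 20 to 62 read pairs of MEIS2 against 170 to 497 in Am580 libraries. The lowest DMSO count, 20 in replicate 2, has an exact 95% Poisson interval of 0.451 to 1.14 CPM, which covers counting error only.

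MEIS3 is a paralogue of MEIS2 best known from patterning of the hindbrain in frog and fish embryos. The name of this gene comes from the reference gene set, and its sequence was not checked. The authors' paper gives 0.72, the log2 fold change found here, for a gene it names Meis1. Whether that is the same gene was not tested. The gene named MEIS3 had the smallest rise of the 4. Its lowest, median and highest levels were 5.94, 7.93 and 9.86 CPM in the Am580 libraries, against 2.98, 4.95 and 6.16 CPM in the DMSO libraries. Here the groups overlapped: 5 of 6 Am580 libraries were above all DMSO libraries, while Am580 replicate 6 lay below DMSO replicates 2 and 3. The means were 7.97 ± 1.46 CPM with Am580, against 4.83 ± 1.21 CPM with DMSO (SD, n = 6 each). The log2 fold change was 0.72 (SE 0.18, edgeR's quasi-likelihood test, Benjamini-Hochberg adjusted p = 0.0171). Of the 4 genes its call was nearest to the threshold, and over all other settings its adjusted p reached 0.0425, when DMSO replicate 5 was left out.

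IRX3 was at a lowest level of 4.24, a median of 7.61 and a highest level of 9.98 CPM in the Am580 libraries, against 1.81, 2.58 and 4.13 CPM in the DMSO libraries. The groups did not overlap, but the margin was thin: Am580 replicate 1 stood 1.03 times above DMSO replicate 6. The 95% Poisson interval of that Am580 library, 3.56 to 5.01 CPM, includes the level of the DMSO library. With totals alone as the scale, replicate 1 was at 3.82 CPM and DMSO replicate 6 at 4.23 CPM, and the groups overlapped. The means were 7.31 ± 2.41 CPM with Am580, against 2.68 ± 0.789 CPM with DMSO (SD, n = 6 each). The log2 fold change was 1.45 (SE 0.25, edgeR's quasi-likelihood test, Benjamini-Hochberg adjusted p = 0.00151), and it stayed at 1.34 or above with each library left out in turn.

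SHOX was the most abundant of the 4. It had a lowest level of 30.2, a median of 38.7 and a highest level of 49.2 CPM in the Am580 libraries, against 15.9, 19.8 and 26.9 CPM in the DMSO libraries. No Am580 library reached down to the DMSO range, and the lowest, replicate 4, stood 1.12 times above DMSO replicate 6. The means were 38.7 ± 7.10 CPM with Am580, against 20.4 ± 3.89 CPM with DMSO (SD, n = 6 each), a log2 fold change of 0.92 (SE 0.15, edgeR's quasi-likelihood test, Benjamini-Hochberg adjusted p = 0.000803). Coefficients of variation were alike in both treatments, 18.4% with Am580 and 19.1% with DMSO, where counting alone would give 2.60% and 3.84%.

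**Figure D2:**
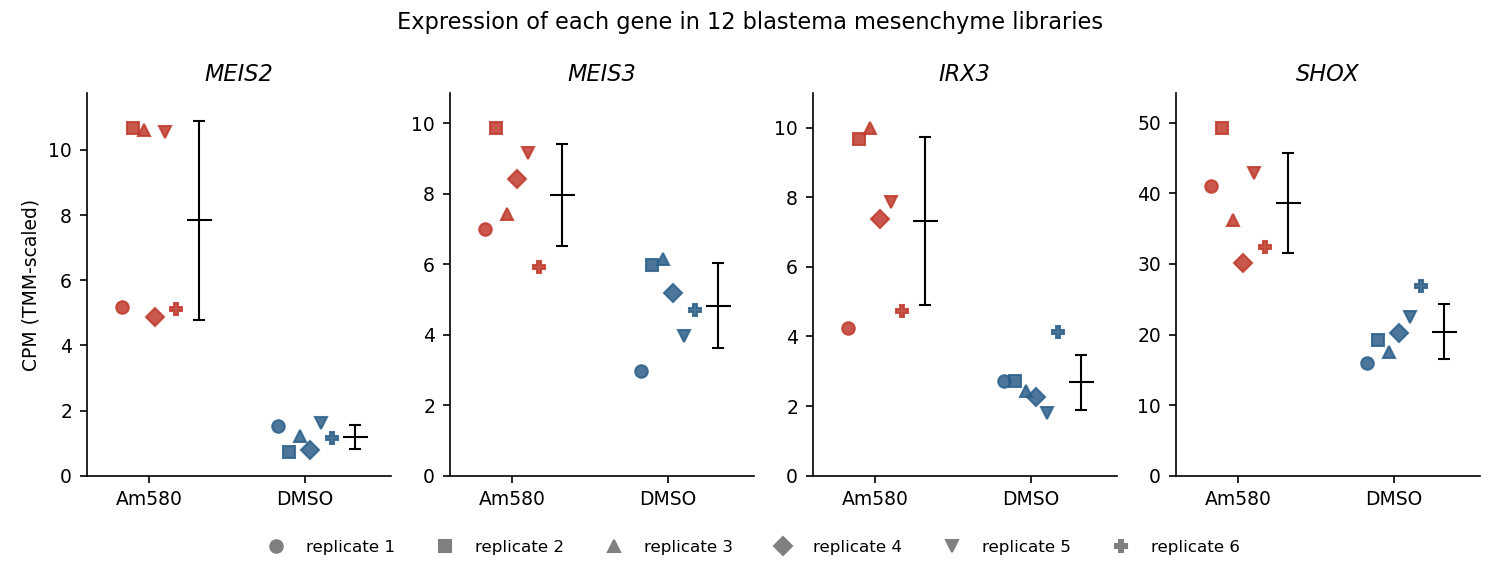
Levels of MEIS2, MEIS3, IRX3 and SHOX in TMM-scaled CPM (vertical axis, from 0, scaled for each gene) in the 6 Am580 libraries and the 6 DMSO libraries, with a point per library, its shape giving the replicate number, and the mean and SD beside the points. The Am580 points of MEIS2 fall at 4.88 to 5.19 CPM and at 10.5 to 10.7 CPM, those of MEIS3 overlap with DMSO, and those of IRX3 and SHOX lie above all DMSO points.

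Levels can be set against each other only per length, and for this CPM was divided by the kb of exon of each gene. In the Am580 libraries SHOX had the highest level with 5.39 ± 0.990 CPM per kb, followed by MEIS3 with 2.31 ± 0.421, MEIS2 with 1.80 ± 0.700 and IRX3 with 1.27 ± 0.419 CPM per kb (SD, n = 6). SHOX stood apart from the others in every library. The ranges of MEIS3 and MEIS2 overlapped, as did those of MEIS2 and IRX3, and in both cases the order held in 5 of 6 libraries. Differences in level between genes were not tested. The ranges of MEIS3 and IRX3 overlapped slightly, though MEIS3 was the higher in 6 of 6 libraries.

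In the DMSO libraries the order was SHOX with 2.85 ± 0.542, MEIS3 with 1.40 ± 0.351, IRX3 with 0.467 ± 0.137 and MEIS2 with 0.271 ± 0.0847 CPM per kb (SD, n = 6). Only the ranges of IRX3 and MEIS2 overlapped, and IRX3 was the higher in 5 of 6 libraries. So MEIS2, the third of the 4 by level with Am580, was the fourth with DMSO, where SHOX exceeded it 10.5 times, against 2.99 times with Am580. These levels use all counted exons. For MEIS2, MEIS3 and SHOX some of them belong to the reference transcript alone, and for IRX3 all do.

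**Figure D3:**
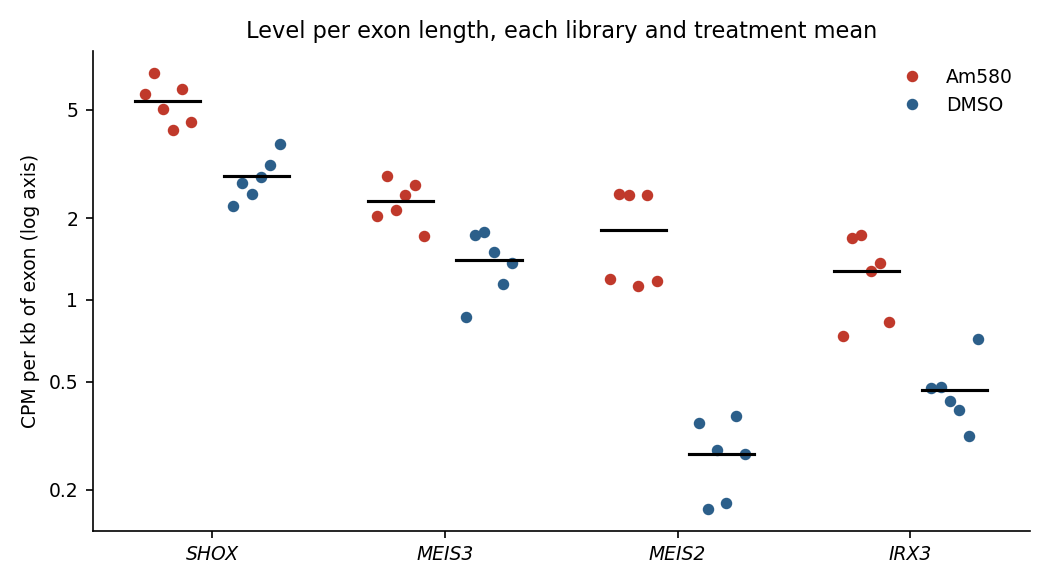
Levels in CPM per kb of counted exon (vertical log axis) for SHOX, MEIS3, MEIS2 and IRX3, with a point per library, Am580 left of DMSO, and a line at the mean. MEIS2 is at 1.80 CPM per kb with Am580, between MEIS3 and IRX3, and at 0.271 CPM per kb with DMSO, the lowest of the 4.

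Whether the 4 genes differed in the size of their rise was tested with ratios inside each library, which do not depend on how libraries are scaled. The log2 ratio of counts was computed for each pair of the 4 genes and for SHOX over SHOX2, and the 7 ratios were compared between treatments with exact two-sided permutation tests, adjusted over the 7 by Benjamini-Hochberg. The smallest p this design allows is 0.00216. MEIS2 rose relative to each of the other 3 genes. Its log2 ratio to MEIS3 was -0.10 ± 0.472 with Am580 and -2.04 ± 0.797 with DMSO, a difference of 1.94 with no overlap (n = 6 each, exact p = 0.00216, adjusted p = 0.00758). Its log2 ratio to SHOX was -2.38 ± 0.454 with Am580 and -4.14 ± 0.550 with DMSO, a difference of 1.76 with no overlap (n = 6 each, exact p = 0.00216, adjusted p = 0.00758). To IRX3 the difference was 1.27 (n = 6 each, exact p = 0.00433, adjusted p = 0.0101), and here the ranges overlapped, with Am580 replicate 4 below DMSO replicate 5.

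The other ratios did not pass. The log2 ratio of MEIS3 to IRX3 was 0.18 ± 0.377 with Am580 and 0.85 ± 0.540 with DMSO, a difference of -0.67 (n = 6 each, exact p = 0.0368, adjusted p = 0.0644). IRX3 over SHOX gave a difference of 0.49 (n = 6 each, exact p = 0.0909, adjusted p = 0.127) and MEIS3 over SHOX one of -0.18 (n = 6 each, exact p = 0.403, adjusted p = 0.433). These p-values do not show that IRX3, MEIS3 and SHOX rose alike.

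**Figure D4:**
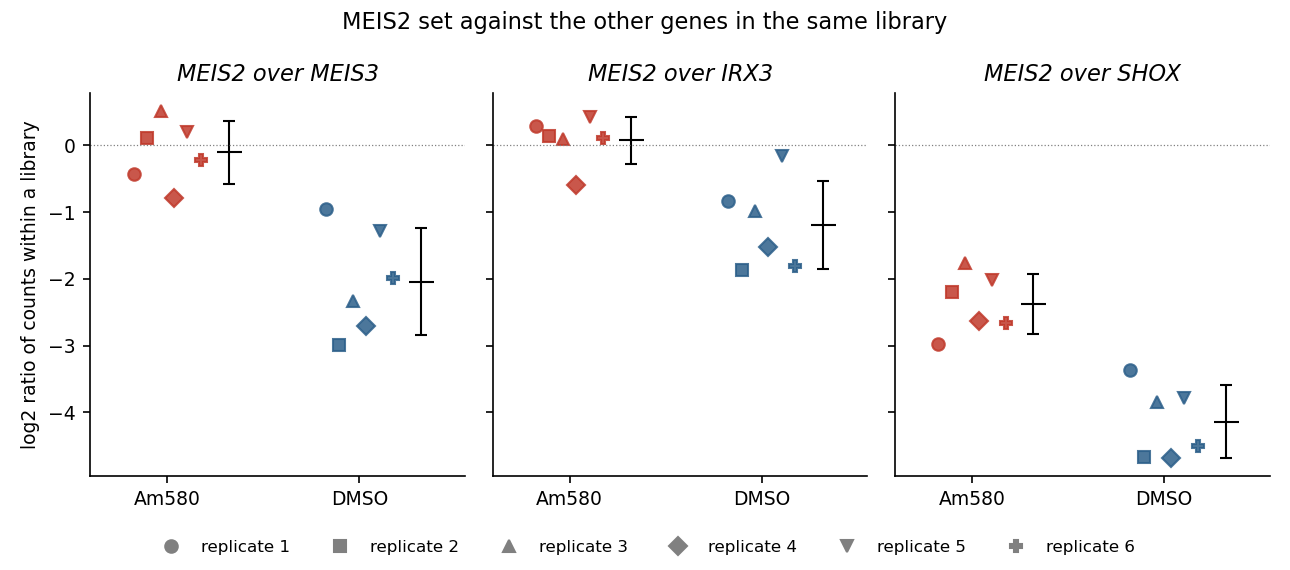
Log2 ratio of MEIS2 counts to those of MEIS3, IRX3 and SHOX within each library (vertical axis, shared), with a point per library, its shape giving the replicate number, and the mean and SD beside the points, Am580 left of DMSO. The mean ratio to MEIS3 is -0.10 with Am580 and -2.04 with DMSO, and the ratio to IRX3 overlaps between treatments through Am580 replicate 4 and DMSO replicate 5.

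Across the libraries of a treatment no relation between the 4 genes passed a test. Of 12 relations, 6 pairs in each treatment with 6 libraries each, the smallest adjusted p was 0.417 for Pearson's r and 0.58 for Spearman's rho (exact permutation tests). For MEIS2 with Am580 no r is given, because its 6 libraries fell into a lower and a higher set of 3 each, which would weigh on r. The 3 Am580 libraries with the higher level of MEIS2 also had the 3 highest levels of IRX3, but not the 3 highest of MEIS3 or SHOX. The lowest r was that of MEIS2 and MEIS3 with DMSO, -0.70 (n = 6, exact p = 0.103, rho -0.60, exact p = 0.242, and r -0.74 without the 2 libraries farthest from the median of MEIS2). It rests on only 20 to 62 counts of MEIS2 per DMSO library. With Am580 the rho of the same pair was positive, 0.54 (n = 6, exact p = 0.297). Every pair had a positive rho with Am580, from 0.31 for IRX3 and SHOX to 0.83 for MEIS2 and SHOX. With DMSO rho ran from -0.60 to 0.09. With 6 libraries only very close relations can be seen. In single libraries, Am580 replicate 2 was the highest for MEIS2, MEIS3 and SHOX and next to the highest for IRX3, while replicate 6 was the lowest or next to the lowest for all 4.

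The other TALE genes were counted from a list of 18 symbols, of which 14 were carried by 18 genes of the table, and the other symbols were not analysed here. Of the 10 genes that passed the count filter, 4 were called higher and 1 lower, where 6.93% of all genes tested were called higher and 7.21% lower. The higher calls include MEIS2, MEIS3 and IRX3, which were chosen with earlier results known, so nothing is read from their number. The other calls were MKX, the tendon factor Mohawk, which was higher, and PKNOX2, a relative of the MEIS proteins also called PREP2, which was lower. The list's median log2 fold change, with MEIS2, MEIS3 and IRX3 included, was 0.01, against 0.00432 over all genes tested, with 5 genes above 0 and 5 below.

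MKX (MSTRG.3872) averaged 0.914 ± 0.249 CPM in Am580 libraries and 0.439 ± 0.236 CPM in DMSO libraries (SD, n = 6 each), with ranges that overlapped. Its log2 fold change of 1.04 (SE 0.32, edgeR's quasi-likelihood test, Benjamini-Hochberg adjusted p = 0.0486) was called in 3 of 12 leave-one-out fits, those without Am580 replicates 5 or 6 or DMSO replicate 3, each fit being without 1 library, and over the 12 its adjusted p reached 0.105. PKNOX2 (AMEXTC_0340000007513_pknox2.L) averaged 4.39 ± 0.947 CPM in Am580 libraries and 6.59 ± 1.06 CPM in DMSO libraries (SD, n = 6 each), again with overlap. Its log2 fold change of -0.58 (SE 0.16, edgeR's quasi-likelihood test, Benjamini-Hochberg adjusted p = 0.0287) was called in 4 of these 12 fits, those without Am580 replicates 1 or 3 or DMSO replicates 3 or 5, and over the 12 its adjusted p reached 0.0647. MEIS2, MEIS3 and IRX3 were called in all 12.

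The other tested TALE genes outside the Iroquois family, PBX3, PKNOX1, TGIF1 and TGIF2, did not pass the test. PBX3, a PBX cofactor, averaged 1.61 ± 0.430 CPM in Am580 libraries and 1.74 ± 0.599 CPM in DMSO libraries, a log2 fold change of -0.11 (SE 0.25, edgeR's quasi-likelihood test, adjusted p = 0.833). PKNOX1, also called PREP1, averaged 25.3 ± 3.53 CPM in Am580 libraries and 25.7 ± 1.94 CPM in DMSO libraries, a log2 fold change of -0.02 (SE 0.10, same test, adjusted p = 0.931). The repressors TGIF1 and TGIF2 had log2 fold changes of -0.06 (SE 0.09) and 0.04 (SE 0.17). None of these 4 genes was called under any of the 22 other settings.

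Of the Iroquois genes, IRX3 and a gene named IRX5 passed the count filter. This IRX5 (MSTRG.14115), the partner of IRX3 in the mouse limb, averaged 0.730 ± 0.283 CPM in Am580 libraries and 0.751 ± 0.297 CPM in DMSO libraries, a log2 fold change of -0.04 (SE 0.32, edgeR's quasi-likelihood test, adjusted p = 0.959). The genes named IRX1, IRX2, IRX4 and IRX6 did not pass the filter, and those with any count were tested only in the fit without it. Of the 3 genes named IRX1, the one with most reads (AMEXTC_0340000008448_IRX1) held 3 to 7 counts in the Am580 libraries and 0 to 3 in the DMSO libraries, and another was at 0 in all 12. With summed counts of 37 with Am580 and 6 with DMSO, this IRX1 was called higher in the fit without a filter over 34576 genes (edgeR's quasi-likelihood test, Benjamini-Hochberg adjusted p = 0.0318), and no fold is given at such counts. The counts of IRX2 were 0 to 3 with Am580 and 0 to 9 with DMSO, and those of IRX4 and IRX6 were at most 2 in any library. For IRX2, IRX4 and IRX6 no difference was detectable at this depth, with an adjusted p of 0.548 or more in the fit without a filter.

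A further gene named IRX5 (AMEXTC_0340000033573_IRX5) lies within IRX3 on the opposite strand, and 1175 of its 1181 exonic bases fall in exons of IRX3. It held 0 to 6 counts per library with Am580 and 0 to 4 with DMSO and was not called in the fit without a filter (adjusted p = 0.662). Read pairs were counted by strand, so those read from the strand of IRX3 were not assigned to it. Whether its few counts come from IRX3 through imperfect marking of the strand was not tested. Names come from the reference gene set only, and the sequences of the genes named IRX5 were not compared.

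SHOX2 (MSTRG.13525), the relative of SHOX, did not pass the test. It was at a lowest level of 2.38, a median of 6.71 and a highest level of 14.4 CPM in the Am580 libraries, against 1.26, 5.63 and 10.5 CPM in the DMSO libraries, and the ranges overlapped widely. Its log2 fold change was 0.42 (SE 0.47, edgeR's quasi-likelihood test, Benjamini-Hochberg adjusted p = 0.649). SHOX and SHOX2 were not shown to differ in their response, since the log2 ratio of SHOX to SHOX2 was 2.54 ± 0.813 with Am580 and 2.10 ± 1.12 with DMSO (n = 6 each, exact p = 0.433, adjusted p = 0.433).

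A wider list of 26 symbols held genes of the upper and middle limb segments and other limb genes, PRRX1 and PRRX2 among them. It gave 15 tested genes, of which 5 were called higher and 2 lower, beside 6.93% and 7.21% of all genes tested. The list includes the 4 genes described here, chosen with earlier results known, so nothing is read from its count of higher calls. The 5 higher calls were the 4 genes described here and 1 more, HOXD10 (MSTRG.13766), a posterior HOX gene, with a log2 fold change of 0.36 (SE 0.11, edgeR's quasi-likelihood test, Benjamini-Hochberg adjusted p = 0.0359). HOXD10 shares its assembled gene with another reference name, and it passed in 4 of 12 leave-one-out fits, over which its adjusted p reached 0.0788. HOXA9 (MSTRG.6440) fell, with 8.23 ± 1.60 CPM with Am580, against 12.4 ± 1.21 CPM with DMSO (SD, n = 6 each), a log2 fold change of -0.59 (SE 0.13, edgeR's quasi-likelihood test, Benjamini-Hochberg adjusted p = 0.00702), and was called in all 12 of these fits. The assembled gene that carries HOXA10 (MSTRG.6439) fell too, with a log2 fold change of -0.34 (SE 0.10, edgeR's quasi-likelihood test, Benjamini-Hochberg adjusted p = 0.0392). It holds the names of 4 HOXA genes, whose counts cannot be divided, and it passed in 4 of these fits, over which its adjusted p reached 0.0875, and neither with library totals alone nor with upper-quartile factors as the scale. Not called were PBX3, IRX5, SHOX2, TBX5, PRRX1, PRRX2, ALX1 and ALX4. The list's median log2 fold change, with the 4 genes included, was 0.34, against 0.00432 over all genes tested.

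Genes known from the limb tip and the future hand were counted from a distal list of 17 symbols. This list too was chosen with earlier results known, so nothing is read from its count of lower calls. Its 8 tested genes had a median log2 fold change of -1.13. None was called higher and 5 were called lower, where 7.21% of all genes tested were called lower. The 5 were MSX2 (log2 fold change -1.95, SE 0.21), MSX1 (-1.91, SE 0.25), DLX5 (-1.37, SE 0.22), BMP7 (-1.29, SE 0.21) and HOXA13 (-0.96, SE 0.26). MSX1, MSX2 and DLX5 are homeobox genes of the limb tip, BMP7 is a signalling ligand, and HOXA13 marks the future hand. HOXA13 (edgeR's quasi-likelihood test, Benjamini-Hochberg adjusted p = 0.0247) was not called without Am580 replicates 4 or 5 or DMSO replicate 3, where its adjusted p reached 0.0576, while the other 4 were called in all 12 leave-one-out fits. SALL1, SALL3 and SALL4 were not called, with log2 fold changes of -0.71, -0.36 and -0.23.

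**Figure D5:**
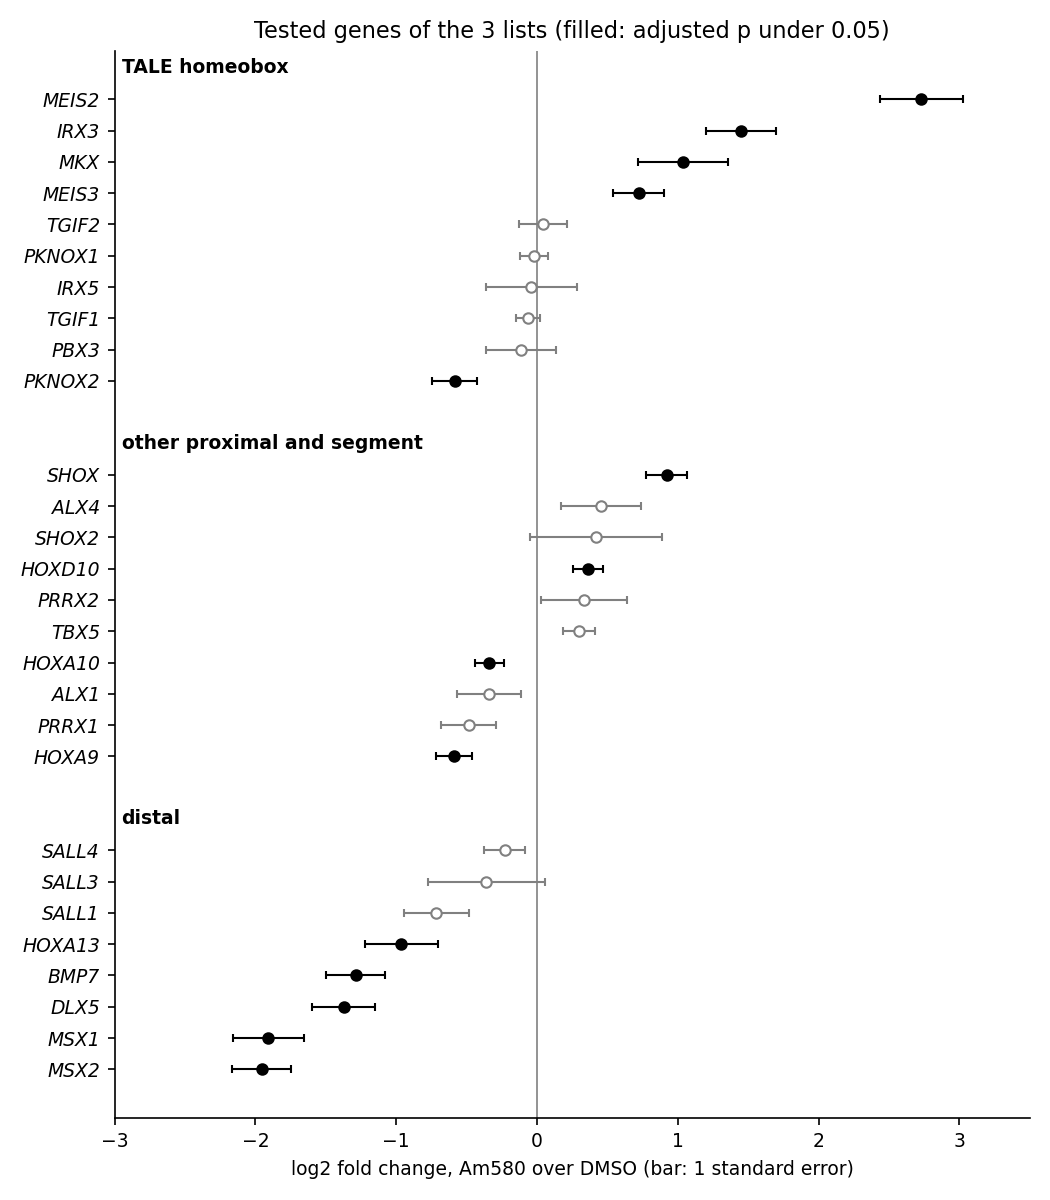
Log2 fold change, Am580 over DMSO (horizontal axis), with 1 standard error, for each tested gene. The genes are those of the TALE list, the rest of the wider list of segment and other limb genes, and the distal list. Filled points have an adjusted p under 0.05 in edgeR's quasi-likelihood test. MEIS2 at 2.73 stands furthest to the right, and the 8 distal genes all lie left of 0, down to MSX2 at -1.95.

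Of the retinoid receptors, RXRA and RXRB were analysed, and both were called higher. RXRA (MSTRG.8723), a partner of the receptor Am580 binds, averaged 51.2 ± 7.76 CPM in Am580 libraries and 16.4 ± 2.19 CPM in DMSO libraries (SD, n = 6 each), a log2 fold change of 1.64 (SE 0.12, edgeR's quasi-likelihood test, Benjamini-Hochberg adjusted p = 1.47e-06) without overlap. RXRB (MSTRG.16678) had a log2 fold change of 0.30 (SE 0.08, edgeR's quasi-likelihood test, Benjamini-Hochberg adjusted p = 0.0312). It was called in 4 of 12 leave-one-out fits, over which its adjusted p reached 0.0729, and not with library totals alone as the scale. The genes RARA, RARB, RARG and RXRG were not analysed here.

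No neighbour of MEIS2, MEIS3, IRX3 or SHOX on its scaffold was called. FTO, which lies next to IRX3 in mouse and human as well, lies 2278 kb after IRX3 and averaged 4.03 ± 0.858 CPM in Am580 libraries and 5.10 ± 0.936 CPM in DMSO libraries, a log2 fold change of -0.34 (SE 0.16, edgeR's quasi-likelihood test, adjusted p = 0.216). PPP2R3B, a phosphatase subunit gene 4344 kb from SHOX, had a log2 fold change of -0.26 (SE 0.10, same test, adjusted p = 0.120). PSMD8, a proteasome subunit gene 2263 kb from MEIS3, had one of 0.05 (SE 0.12, same test, adjusted p = 0.853). The neighbour of MEIS2, named LOC101879660 and 432 kb away, had one of 0.19 (SE 0.16, same test, adjusted p = 0.518). In the RefSeq annotation of another axolotl assembly, UKY_AmexF1_1, the pairs IRX3 and FTO, SHOX and PPP2R3B, and MEIS3 and PSMD8 also have 0 protein-coding genes between them.

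The genes whose levels followed each of the 4 most closely over the 12 libraries were found among 8717 named genes that averaged 1 CPM or more. These correlations of log2 CPM are descriptions, since the 12 libraries fall into the 2 treatments, and r of the deviations from the treatment means is given beside each. For MEIS2 they were RBPMS, an RNA-binding protein gene (r 0.98, within treatments 0.81), LRRC17 (0.97 and 0.91) and the myosin gene MYO6 (0.96 and 0.72). The Am580 libraries of MEIS2 fell into a lower and a higher set of 3 each, and this split enters its r within treatments. RBPMS averaged 7.29 ± 1.40 CPM in Am580 libraries and 2.19 ± 0.294 CPM in DMSO libraries (SD, n = 6 each). For IRX3 they were METRN (0.97 and 0.90), the ligand gene WNT4 (0.95 and 0.79) and the protease gene PCSK5 (0.95 and 0.87). WNT4 (AMEXTC_0340000188803_WNT4) averaged 2.05 ± 0.669 CPM in Am580 libraries and 0.604 ± 0.216 CPM in DMSO libraries (SD, n = 6 each).

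For SHOX they were TMEM134 (r 0.95, within treatments 0.75), the Wnt pathway factor TCF7L2 (0.95 and 0.78) and ISM1 (0.94 and 0.76). TCF7L2 (MSTRG.10297) averaged 16.2 ± 1.29 CPM in Am580 libraries and 8.29 ± 0.878 CPM in DMSO libraries (SD, n = 6 each). For MEIS3 they were the polarity gene PARD6G (0.94 and 0.90), the phosphatase gene PTPRK (0.94 and 0.85) and the corepressor gene TLE3 (0.94 and 0.84), with log2 fold changes of 0.25 (not called), 0.30 and 0.33 between treatments. Among themselves the 4 genes had r from 0.71 for MEIS2 and MEIS3 to 0.89 for MEIS2 and SHOX, and within treatments from -0.08 to 0.44. These cannot be compared with the values above, which are the highest found among 8717 genes. Ordered by r in the same way, the 4 genes ranked for each other from 31, MEIS2 for SHOX, to 596, MEIS3 for MEIS2.

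Markers of other cell types were compared to see what else moved with the treatment. The summed level of 5 macrophage markers was 636 to 931 CPM with Am580 and 1033 to 1495 CPM with DMSO, without overlap. Of these, CSF1R and a gene named CD68 (MSTRG.22819) were called lower and MARCO higher. A further gene named CD68 (MSTRG.22816) was not called. The summed level of 10 genes carrying epidermal marker names was 389 to 509 CPM with Am580 and 541 to 728 CPM with DMSO, without overlap, and KRT18 and PKP1 were called lower. KRT18 made up most of this sum and averaged 435 ± 39.3 CPM in Am580 libraries and 595 ± 93.0 CPM in DMSO libraries, and the sum of the other 9 was 13.4 to 60.5 CPM with Am580 and 22.5 to 127 CPM with DMSO, with overlap. PKP1, among these 9, had a log2 fold change of -3.26 without overlap (SE 0.32, edgeR's quasi-likelihood test, Benjamini-Hochberg adjusted p = 1.63e-05). The 6 other tested genes were not called, among them KRT12 and TP63 with log2 fold changes of 1.19 and 1.25, and EPCAM and DSP with -1.04 and -1.09. The summed levels of cartilage, muscle, Schwann cell, endothelial and red cell markers overlapped between treatments, with SOX5 and PMP22 called lower and MYOG and EGFL7 called higher among them. No marker of any of these lists was at 0 in all libraries. Whether a change in cell makeup has a part in the rise of MEIS2, MEIS3, IRX3 and SHOX was not tested.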

How the data were processed

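Total RNA of 12 blastema mesenchyme libraries, 6 Am580 and 6 DMSO, was grouped by the treatment in the labels. The authors' reads were trimmed (Trimmomatic 0.36), placed on AmexG_v3.0.0 (HISAT2 2.1.0) and assembled (StringTie 1.3.4d). Exonic read pairs were then summed for each gene by strand (featureCounts, Subread 1.6.2), and these deposited counts are whole and not normalized. A second deposited table gives a signal for 25685 genes, which equalled TMM-scaled CPM within a relative difference of 1e-12 and was not used further. The deposited assembly gives other values, coordinates and gene names.

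Genes that reached 10 counts in 6 or more libraries were tested in R 4.3.3 with edgeR 4.0.16 (TMM, legacy quasi-likelihood F test, no covariates) and Benjamini-Hochberg adjustment over 25879 genes, threshold 0.05. The pipeline was tested on simulated data. The standard error was derived from the F statistic. Tables and permutation tests used Python 3.11.15 and scipy 1.17.1. Within-library ratios used a pseudocount of 0.5 counts and were chosen after seeing the fold changes. Alternatives were other normalizations, filters and tests (DESeq2 1.42.0, limma 3.58.1), a replicate block, and each library left out.

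The 4 genes and the lists were chosen with earlier results of these data known. Named genes were all genes carrying a symbol of the 4 genes or of the TALE list, called genes of other lists, the 3 most correlated named genes per gene, and scaffold neighbours. SHOX2, the uncalled genes of the lists and the connective tissue markers were named in addition. Symbols were matched to names in the assembly, and genes named otherwise there are not counted. No sequence was printed, since no genome of this build was used.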

Additional observations from a re-analysis of the deposited data

Results flagged for a closer look

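None of the 8 groups of libraries of MEIS2, MEIS3, IRX3 and SHOX held a library far from the others. In 22 groups, 11 genes in 2 treatments, the gap between the lowest or highest library and its nearest neighbour was divided by the range of log2 CPM in the group, and chance sets apart about 1 group in 20. PKNOX1, a MEIS relative that was not called, had its lowest Am580 library, replicate 1, at 0.636 of the range below the next. PKNOX2 had its lowest DMSO library, replicate 3, at 0.630 of the range below the next, and without this library PKNOX2 was still called lower.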

How the results depend on the processing

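MEIS2, MEIS3, IRX3 and SHOX were each called higher in all 22 alternatives. Leaving out each library in turn gave a log2 fold change of 2.63 to 2.85 for MEIS2, 0.62 to 0.80 for MEIS3, 1.34 to 1.61 for IRX3 and 0.84 to 1.02 for SHOX, and under the other alternatives 2.68 to 2.80, 0.72 to 0.77, 1.43 to 1.51 and 0.92 to 0.96. The count of called TALE genes, 5 of 10, went to 3 with the replicate number as a block and was 3 to 5 with each library left out in turn, 3 without Am580 replicates 2 or 4 or DMSO replicates 1, 2, 4 or 6. The 3 genes were MEIS2, MEIS3 and IRX3, as PKNOX2 (block, adjusted p = 0.0575) and MKX (block, 0.0664) were lost. Correlations of deviations between same-numbered libraries ran from -0.17 to 0.23, and over all pairs of an Am580 and a DMSO library from -0.30 to 0.26. Of 6 Am580 libraries 1 correlated best with its own number. No pairing by number was seen, though this check cannot exclude a weak one. With the block, adjusted p was 0.000787 for MEIS2, 0.0207 for MEIS3, 0.0165 for IRX3 and 0.00778 for SHOX, and 3440 genes were called in place of 3660. DESeq2 called 4707. The ranges of IRX3, which do not overlap with TMM scaling (lowest Am580 over highest DMSO library 1.03), overlapped with library totals alone (0.903), a comparison added after seeing the data. Without a filter on low counts 5 TALE genes were called as well, but with IRX1 (adjusted p = 0.0318) in place of MKX. Depth limits IRX2, IRX4 and IRX6.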
